A study of Rattus norvegicus with 15 samples.

Results

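The insulin-like growth factor (IGF) system was examined in the olfactory epithelium of rats through 10 genes, which were the ligands Igf1 and Igf2, the receptors Igf1r and Igf2r, and the binding protein genes Igfbp2 to Igfbp7. They were chosen by gene name on the array, and 9 of the 10 had at least 1 probe of that name, 15 probes in all out of the 41012 on the array. Igfbp7 had no probe of that name. The array held 35561 gene names in all. RNA came from 8 Brown Norway rats aged 6 weeks, 4 males and 4 females, with no treatment or genetic change named in the labels. The nostrils of each rat, called A and B, were hybridized separately, for a total of 15 arrays, since male 1 has nostril A alone. The letters are not tied to a side in the labels, although the protocol says that the sample left out, for its RNA quality, was a left one.

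IGF-I and IGF-II are secreted growth factors that act mainly through the type 1 receptor, a tyrosine kinase that drives the PI3K-Akt and MAP kinase cascades. The type 2 receptor, which is also the cation-independent mannose 6-phosphate receptor, takes up IGF-II and carries it to lysosomes. The binding proteins hold the ligands outside the cell, prolong their life, and release them when proteases such as PAPP-A cut them. In many tissues fibroblasts, vessel walls and bone are rich sources of these proteins, and in the nose IGF signalling is known for a part in guiding olfactory axons to the bulb.

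A level is given here as log2 of the signal over the array median, so that 0 is the median probe of an array and 1 unit is a doubling. Signals under 0.1 of the array median were raised to it, which is -3.32 on this scale. Levels of different probes are not comparable with each other, because probes differ in how well they bind. As a check of the tissue, the probes for Omp, the marker of mature olfactory neurons, for Gap43, a protein of growing axons, and for Cyp2g1, an olfactory cytochrome P450, were detected on all 15 arrays. The array medians lay between 57.4 and 83.4 intensity units, and the number of probes well above background ran from 26233 to 28741. In whole tissue, fewer cells of a type and less RNA per cell cannot be told apart. The arrays were spread over 4 slides. Males 1 and 2 shared slide 1 with female 3, whose nostril B was on slide 2 with female 4, males 5 and 6 were on slide 3, and females 7 and 8 on slide 4. The labels number the animals, so the rat was the unit of the tests between the sexes.

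The sequences of the probes show what some of the values can and cannot report. All probes are 60 bases long, with a GC content between 30% and 70%, and their positions, in build rn3, come from the array's own annotation, which names no exons, introns or untranslated regions. For Igf1, 3 of the 4 probes lie near each other on the plus strand of chromosome 7. Rat Igf1 transcripts are known to start in alternative leader exons that are joined to the same downstream exon. The probe A_44_P126021 (chr7:24552241-24557334) and the probe A_44_P421499 (chr7:24554081-24557319) span 5094 and 3239 bases of the genome, far more than their own length, so each crosses an intron. They start in different upstream blocks and run into the same downstream block, and their ends lie 15 bases apart. The last 30 bases of each are shown, with the part that can lie in the shared block in capitals, which is 18 bases of the first and at most 3 of the second.
Igf1 A_44_P126021: gacttcttgaagATAAAGATACACATCATG
Igf1 A_44_P421499: ggacgtaccaaaatgagcgcacctccaATA
The probe A_44_P421502 (chr7:24554021-24554080) ends on the base before A_44_P421499 starts, so both sit on the same upstream block. The remaining probe, A_44_P366723 (chr7:24624986-24625045), lies further downstream, with 67651 bases between its start and the end of A_44_P126021.

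The binding proteins are related, so the letters of the probes were compared. The probes were set against each other only, not against other members' transcripts. Whether a probe can bind another member's transcript was not tested. Among the 105 pairs of member probes, 3 shared a run of 9 or more bases, and the longest run was 12 bases. It joins Igfbp3 A_44_P180127 (chr14:87980756-87981650, minus strand) and Igfbp6 A_44_P378799 (chr7:140964859-140964918, plus strand), of which 30 bases each are shown with the shared run in capitals.
Igfbp3 A_44_P180127: cacatcCCAAACTGTGACaagaaggggttc
Igfbp6 A_44_P378799: ctctatgtgCCAAACTGTGACctcagaggt
The Igfbp5 probes are shown because they carry the clearest difference between rats. They lie on the minus strand of chromosome 9, A_44_P264240 at chr9:72147294-72147353 and A_44_P285534 at chr9:72150641-72150700, with 3287 bases between them. Their longest shared run, in capitals, was 9 bases, so the probes sample different stretches of the transcript. The Igfbp2 probe lies 33095 bases away on the opposite strand.
Igfbp5 A_44_P264240: aaagcacagtAGAAGGGAAagaggtttcat
Igfbp5 A_44_P285534: gttgaacggacagAGAAGGGAAgaagagaa

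Of the 15 member probes, 13 were expressed, that is, well above background on at least 11 of the 15 arrays, and each of the 13 was so on all 15. They covered all 9 genes that had a probe. On the whole array 65.1% of the probes were expressed. The other 2 probes were the Igf1 probes of the second upstream block. A_44_P421499 was well above background on 1 array, which put it among the weakly expressed transcripts, and A_44_P421502 on 0 arrays. Both were nevertheless called positive and significant by the weaker criterion of the scanner software, on 15 arrays and on 10 arrays. Their brightest signals over the 15 arrays were 14.7 and 11.2 intensity units, while the dimmest probe called well above background had between 10.01 and 14.5 units depending on the array. Signals of these probes were at the limit of what the arrays measure, and no fold change is given for them.

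Igf1 itself was measured on both other probes. The downstream probe A_44_P366723 ranged from 4.93 in female 4, nostril B, through a median of 5.44 to 6.07 in male 2, nostril A. By rat, the males had levels of 5.14 (male 1), 5.89 (male 2), 5.65 (male 5) and 5.48 (male 6). The females had 5.11 (female 3), 5.16 (female 4), 5.42 (female 7) and 5.63 (female 8). The lowest levels thus came from male 1, female 3 and female 4, and the highest from male 2. The probe A_44_P126021 of the first upstream block ranged from 1.25 to 2.35 with a median of 1.76. By rat it was lowest in male 1 and highest in male 2, while the downstream probe was lowest in female 3 and highest in male 2.

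Igf2, the growth factor best known from fetal tissue, was expressed on its single probe A_44_P1037953 (chr1:203094707-203094766, minus strand), from 6.51 in male 1 to 7.67 in male 2, nostril A, with a median of 7.27. The rat levels were 6.51, 7.47, 7.18 and 6.75 in males 1, 2, 5 and 6, and 7.24, 7.13, 7.36 and 7.52 in females 3, 4, 7 and 8. The lowest values were those of males 1 and 6, and the ranges of the sexes overlapped. The nostrils of a rat differed by up to 0.62, in female 3, whose nostrils were on different slides. In the other rats they differed by up to 0.40.

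The receptors varied least. Igf1r, the type 1 receptor, probe A_44_P474037 (chr1:123067493-123067552, plus strand), was printed 10 times per array, and its 10 spots had a median coefficient of variation of 3.52%. Its levels were 4.62, 4.52, 4.37 and 4.46 in males 1, 2, 5 and 6, and 4.73, 4.75, 4.68 and 4.60 in females 3, 4, 7 and 8. All females but female 8 lay above every male, and female 8 lay between males 1 and 2. Igf2r, on probe A_44_P1003212 (chr1:42343711-42343770, plus strand), ranged from 6.16 to 6.48 over the 15 arrays, a span of 1.25-fold. The SD between rats of 1 sex was 0.09 for Igf1r and 0.07 for Igf2r, against a median of 0.15 over all probes tested.

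Among the binding proteins, Igfbp5, which binds matrix as well as IGFs, had the widest range between rats. On A_44_P264240 the arrays ranged from 5.33 to 6.61 with a median of 6.35. The rat levels were 5.80, 6.29, 6.51 and 6.50 in males 1, 2, 5 and 6, and 5.48, 5.44, 6.48 and 6.39 in females 3, 4, 7 and 8. Females 3 and 4 were low on all of their arrays, male 1 was intermediate, and the other rats lay close together. On A_44_P285534 the levels were 1.37, 1.91, 1.76 and 2.05 in the males and 0.85, 0.94, 1.63 and 1.73 in the females, with the rats listed in that order. Again females 3 and 4 were lowest and male 1 came next. From the lowest to the highest rat the difference was 2.095-fold on the first probe and 2.30-fold on the second.

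Igfbp3, the main carrier of IGFs in blood, had both of its probes expressed, and A_44_P180127 was printed 10 times with a median coefficient of variation of 3.99% between spots. On A_42_P627998 (chr14:87979639-87979698, minus strand) the levels were 3.75, 4.23, 4.13 and 3.87 in males 1, 2, 5 and 6, and 3.60, 3.59, 4.19 and 4.22 in females 3, 4, 7 and 8. On A_44_P180127 they were 2.54, 3.00, 2.77 and 2.59 in the males and 2.33, 2.26, 2.94 and 2.94 in the females. Females 3 and 4 were lowest on both probes and male 2 was highest.

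Igfbp4, an inhibitory binding protein that PAPP-A cleaves, gave levels of 5.56, 6.40, 6.49 and 6.40 in the males and 5.88, 5.51, 6.50 and 6.29 in the females on A_43_P16767 (chr10:87848583-87848642, plus strand). Male 1 and female 4 were lowest. The other probe, A_44_P515317 (chr10:87843934-87843993), lies 4589 bases upstream and ranged from -1.001 to 0.45. It also had its lowest rat levels in male 1 (-0.74) and female 4 (-0.67). However, the nostrils of female 3, which were on different slides, differed on it by 1.04. Those of the other rats differed by up to 0.75. Igfbp2, on A_44_P547185 (chr9:72114139-72114198), ranged from 4.74 to 5.70 over the arrays, and Igfbp6, which prefers IGF-II, from 2.69 to 3.87. The lowest rat was female 4 for Igfbp2 and male 1 for Igfbp6.

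**Figure D1:**
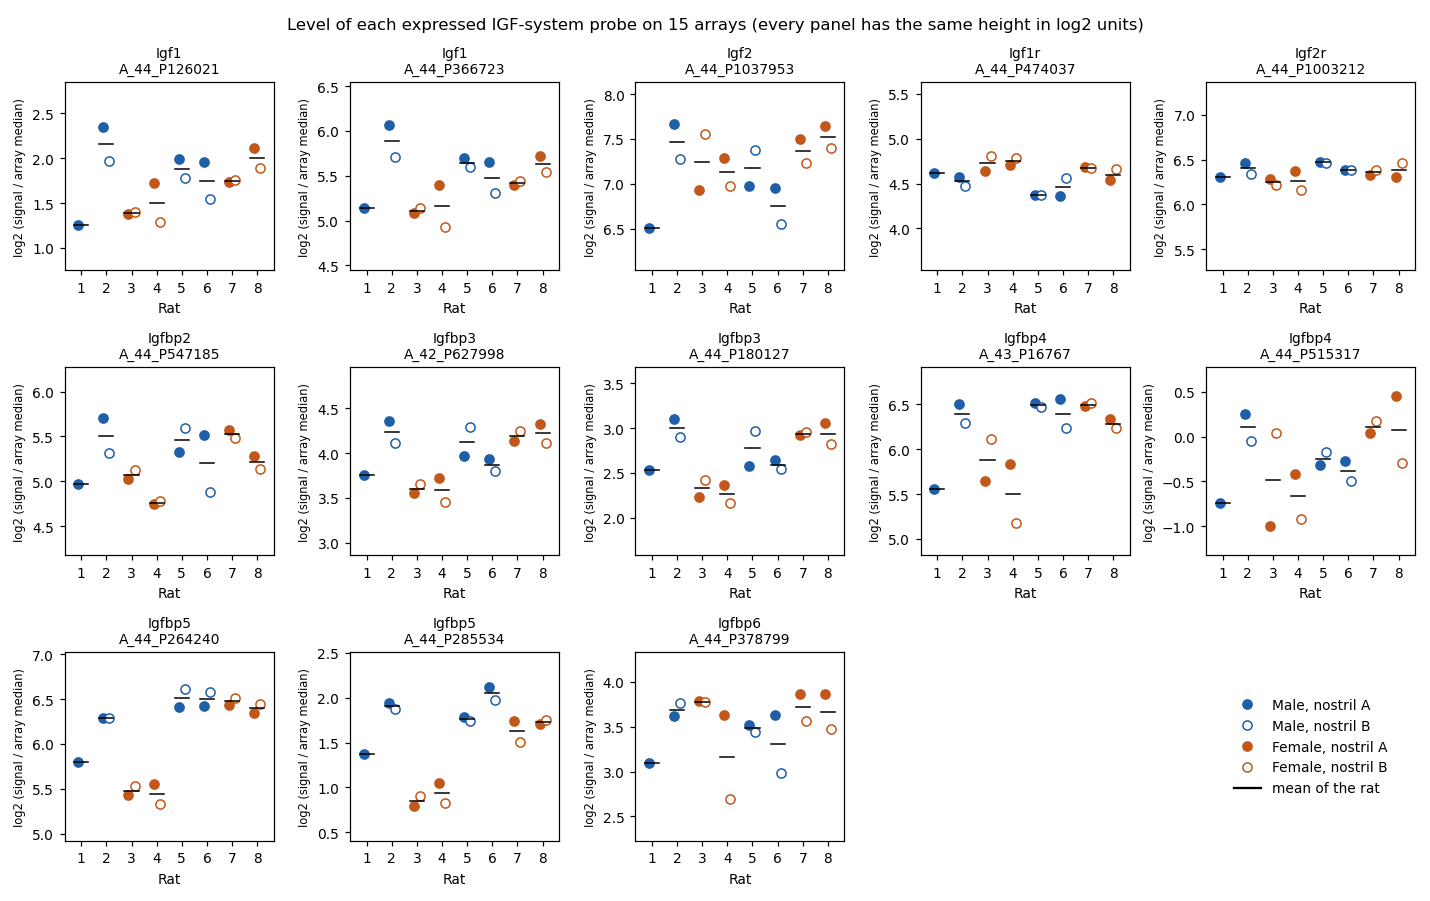
Level of each of the 13 expressed IGF-system probes, as log2 of the signal over the array median, in rats 1 to 8; filled points are nostril A, open points nostril B, blue males, orange females, and the line is the mean of the rat. The Igfbp5 panels show females 3 and 4 below the other rats with nostrils close together, and the Igf2r panel shows the narrowest range, 6.16 to 6.48.

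The first comparison asked whether the sexes differed. No member probe differed between males and females at a false discovery rate of 1%. The nearest was Igf1r, which averaged 4.49 ± 0.10 (SD, n = 4) in males and 4.69 ± 0.07 (SD, n = 4) in females. That is a difference of 0.20 on the log2 scale (SE 0.07, 1.14-fold, 95% interval 0.04 to 0.35), with an adjusted p of 0.197 by limma with Benjamini-Hochberg adjustment over 27625 probes. The next was Igfbp5 A_44_P285534, which averaged 1.77 ± 0.29 (SD, n = 4) in males and 1.29 ± 0.46 (SD, n = 4) in females. Its difference was -0.49 (SE 0.22, 95% interval -0.99 to 0.02), with a limma adjusted p of 0.308.

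The count of member probes past the threshold was 0 of 13, beside 0.0434% of all probes tested (12 of 27625). At an unadjusted p under 0.05 it was 1 of 13, Igf1r, beside 17.1% of all probes, and the methods' t-test on the same rat means called 0 after Benjamini-Hochberg adjustment. The difference was positive, that is higher in females, for 4 of the 13 probes and for 52.1% of all probes tested. The median difference of the member probes was -0.10, beside 0.01 over all probes, and in every one of the 13 the ranges of the sexes overlapped. The 95% intervals were narrowest for the receptors. That of Igf2r ran from -0.21 to 0.05, that of Igfbp4 A_43_P16767 from -0.73 to 0.39 and that of Igf2 from -0.08 to 0.76.

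Slide 1 was the only slide with both sexes, with 2 males and 1 female. Within it Igf1r was higher by 0.07 in the female, and Igfbp5 A_44_P285534 differed by -0.85. On Igfbp5 A_44_P264240 it was -0.61, against -0.33 over all slides, and on Igf2 it was -0.0526, against 0.34. On Igfbp3 A_44_P180127 it was -0.54, against -0.11, and on Igfbp3 A_42_P627998 it was -0.44, against -0.10. Igfbp6 moved upward, with 0.39 within the slide, against 0.19. A fit over single arrays with slide as a block rests on the same 4 arrays, of which 1 is from a female, weighted by array and not by rat. It gave -0.94 and -0.70 for the Igfbp5 probes and -0.21 for Igf2, and with a single female array these are given as values without a test.

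**Figure D2:**
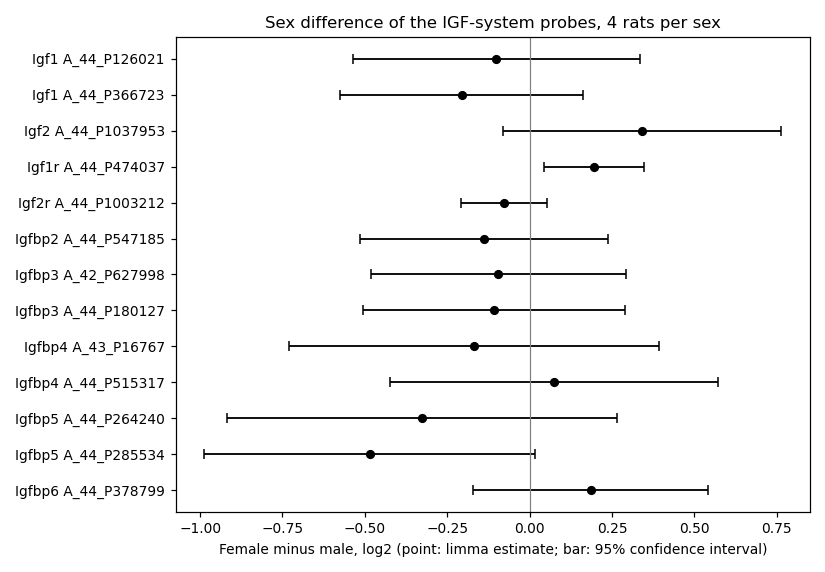
Female minus male difference on the log2 scale for the 13 IGF-system probes, from limma on rat means, 4 rats per sex; points are estimates and bars 95% confidence intervals. The Igf1r interval, 0.04 to 0.35, is the only one that leaves out 0, and its adjusted p is 0.197.

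The second comparison set the nostrils of the same rat side by side, in the 7 rats with both. No member probe passed 1%, where the whole array had 0 of 27574 probes, a background of 0%. The largest mean difference was that of Igfbp6, -0.32 (B minus A, SE 0.12, limma adjusted p = 0.781), and nostril B was the lower in 6 of 7 rats. Igf1 was lower in B on both expressed probes by 0.23 (SE 0.07) and 0.19 (SE 0.07), each in 5 of 7 rats, with the same limma adjusted p of 0.781. At an unadjusted p under 0.05, 3 of the 13 probes passed, beside 5.89% of all probes, and these were the same 3. The estimate was below 0 for 11 of the 13 probes and for 44.2% of all probes.

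The nostrils of a rat lay on neighbouring positions of a slide, always in the same order, except in female 3, whose nostrils were on different slides. Position and nostril cannot be told apart in the other rats. The nostril difference did not pass the test between the sexes for any member probe, with a limma adjusted p of 1.00 for each. The background was 0% at 1%, and 2.36% at an unadjusted p under 0.05.

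The third comparison asked whether rats of the same sex differed by more than the nostrils within a rat. Both Igfbp5 probes did. The SD between rats was 0.46 on A_44_P264240 against 0.10 between nostrils, and 0.38 against 0.10 on A_44_P285534. The SD between rats is of rat means over all 8 rats, with male 1. That between nostrils is of single arrays over 7 rats. Equal values would therefore not mean that rats do not differ. The F-test in limma over the 7 rats with both nostrils gave F = 45.5 with an adjusted p of 0.000542 for A_44_P264240. For A_44_P285534 it gave F = 23.4 with a limma adjusted p of 0.00296. Both calls were lost with slide as a block (limma adjusted p = 0.869 and 0.403) and with normexp background correction (0.283 and 0.0897). That of A_44_P285534 was also lost with the ratio table (0.0127), with no filter on dim probes (0.0105) and without female 8 (0.0210). The Igfbp3 probes came next, with F = 9.94 and F = 9.81 and limma adjusted p-values of 0.0195 and 0.02003, which pass 5% but not 1%. The 5% call of both was lost with slide as a block (limma adjusted p = 0.637 and 0.740), with normexp background correction (0.518 and 0.279), with no filter on dim probes (0.0642 and 0.0639) and without female 7 (0.0518 and 0.0573).

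The count at 1% was thus 2 of 13 member probes, both of Igfbp5, beside 2.82% of all probes (777 of 27574), and at 5% it was 4 of 13, beside 14.6% of all probes. Igfbp4 A_43_P16767 followed with F = 5.63 (limma adjusted p = 0.0571). Igf1 gave F = 3.68 and F = 3.85, Igfbp2 4.11 and Igf2 2.53, with limma adjusted p-values between 0.0983 and 0.209. The second Igfbp4 probe had F = 2.13, Igfbp6 1.59, Igf1r 1.36 and Igf2r 1.07. The median F was 3.85 over the 13 probes and 2.34 over all probes tested.

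**Figure D3:**
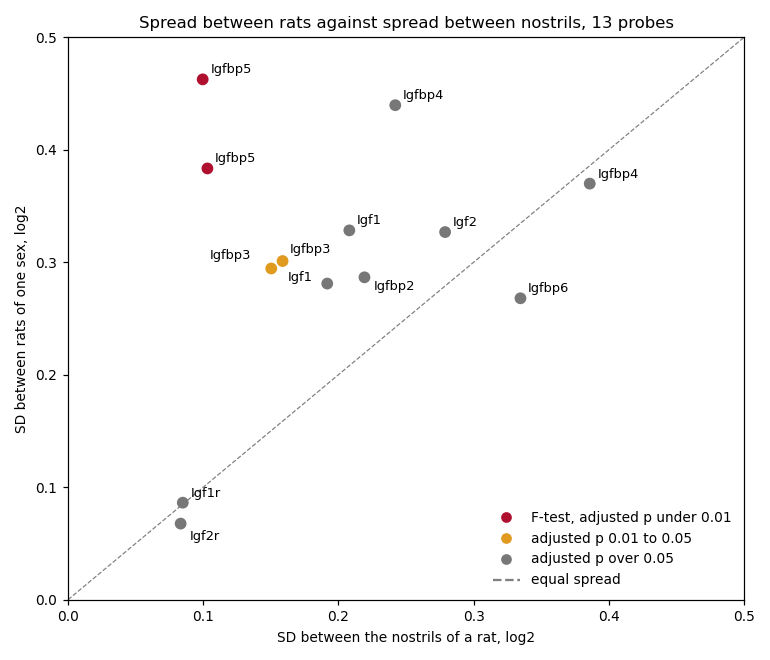
SD between rats of the same sex against SD between the nostrils of a rat, both in log2 units, 1 point per expressed IGF-system probe, with the colour giving the adjusted p of the limma F-test and the dashed line marking equal spread. The Igfbp5 points lie at 0.46 and 0.38 between rats and 0.10 between nostrils. Igf1r and Igf2r lie near the line with both SDs under 0.10. The SD between rats is of rat means over 8 rats, and that between nostrils of single arrays over 7. The line is thus not that of no difference between rats.

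Rats were not spread evenly over slides, and this limits the comparison. With slide as a block only the pairs that shared a slide and had both nostrils remained, females 3 and 4, males 5 and 6, and females 7 and 8. In that fit 0 member probes passed 1%, with F = 0.43 for Igfbp5 A_44_P264240, and 0 of all probes did. Of female 3, only nostril B, on slide 2, enters the comparison with female 4. On A_44_P264240 those pairs had levels of 5.53 and 5.44, 6.51 and 6.50, and 6.48 and 6.39. On slide 1, which enters no comparison of that fit, A_44_P264240 read 5.80 in male 1, 6.29 on both arrays of male 2 and 5.43 in female 3. A_44_P285534 read 1.37 in male 1, 1.94 and 1.87 in male 2 and 0.79 in female 3. These differences within a slide were not tested. The animals came from a pair of suppliers, and since the labels tie no rat to a supplier, supplier was not analysed here.

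Markers of connective tissue and vessels varied alongside these binding proteins from rat to rat. The mean log2 level of 7 fibroblast markers, all expressed, was 5.93, 6.55, 6.81 and 6.36 in males 1, 2, 5 and 6, and 6.00, 5.89, 6.42 and 6.44 in females 3, 4, 7 and 8. It was lowest in female 4, male 1 and female 3, the rats with the lowest Igfbp5. The same 3 rats had the lowest levels, as mean log2 and as sum, of the pericyte and smooth muscle, endothelial and bone lists. For the macrophage and cartilage lists they were lowest by mean log2, in cartilage with male 1 and male 6 both at 2.05, but not by sum. For the ensheathing and Schwann list the lowest by mean log2 were females 3, 4 and 7. Summed over the list, the fibroblast level was between 1981 and 4283 times the array median in males and between 1711 and 3003 times in females. The pericyte and smooth muscle markers, 5 of 5 with a probe expressed, summed to between 90.4 and 138 in males and between 76.3 and 126 in females. The endothelial markers, 4 of 7 with a probe expressed and Tek, Flt1 and Cdh5 not, summed to between 31.6 and 53.8 in males and between 34.9 and 45.3 in females.

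The ensheathing and Schwann list had 5 of 6 expressed, without S100b, and spanned 362 to 627 in males and 227 to 395 in females. The bone list had 6 of 7, without Sp7, and spanned 1303 to 2983 and 1231 to 2079, while macrophage markers had 5 of 6, without Cd163, and spanned 141 to 203 and 146 to 157. Cartilage markers, 5 of 5, spanned 29.96 to 38.04 and 29.0 to 32.8. By contrast the mean log2 level varied between rats by 0.26 for the mature neuron list (6 of 6) and 0.30 for the immature list (5 of 5), against 0.92 for fibroblasts. For the sustentacular list (3 of 3 with a probe) it varied by 0.29. The blood list, 3 of 4 without Hbe1, varied by 3.89 and was lowest in female 7 and highest in male 6. The muscle list, with 2 of 5 expressed and Acta1, Myh4 and Ckm not, varied by 2.19. The part of these cell types in the Igfbp5 difference was not tested.

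**Figure D4:**
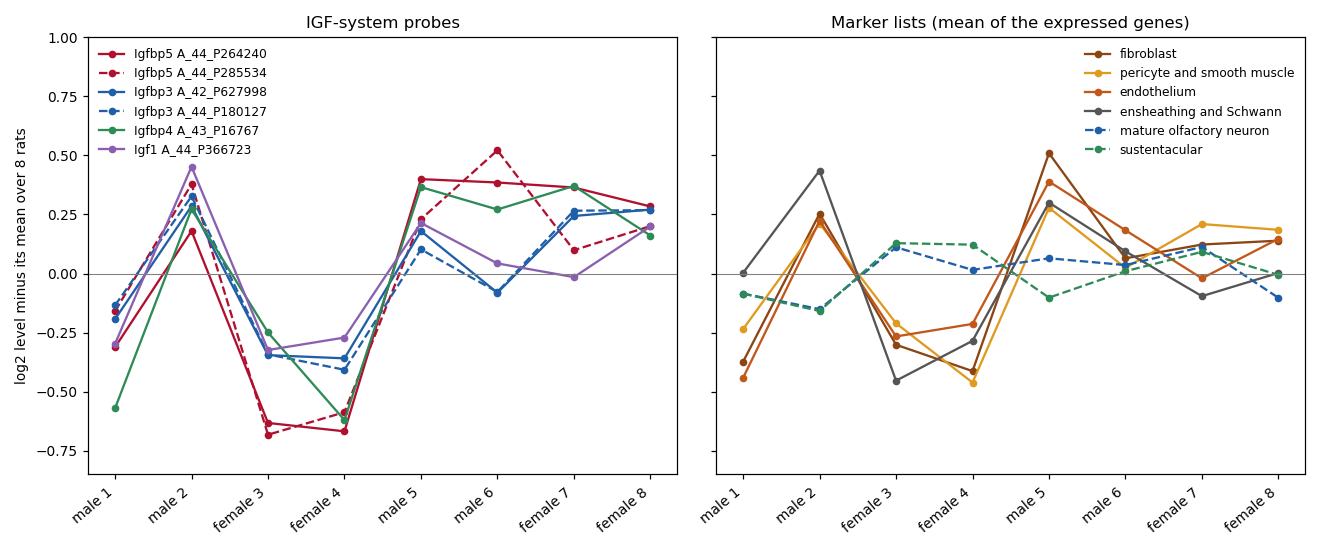
Rat means of 6 IGF-system probes (left) and of 6 marker lists (right), each as log2 level minus its own mean over the 8 rats; lines join the points of a series only to guide the eye, since rats have no order. Male 1 and females 3 and 4 lie low in the Igfbp5, Igfbp3, Igfbp4, Igf1 and fibroblast series, while the mature neuron and sustentacular series span 0.26 and 0.29 from lowest to highest.

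For the 3 members with the highest F, the named genes whose rat means followed them most closely were sought among 12656 expressed probes, as a description over 8 rats. For Igfbp5 these were Ggcx (Pearson r = 0.990), the vitamin K dependent gamma-glutamyl carboxylase, Myl9 (r = 0.989), the regulatory myosin light chain of smooth muscle, and Klhl7 (r = 0.988). For Igfbp3 they were Thbs2 (r = 0.977), a matrix glycoprotein, Tpm1 (r = 0.972), a tropomyosin, and Cd63 (r = 0.964), a tetraspanin. For Igfbp4 they included Kcns1 (r = 0.984), a potassium channel subunit, and Tmed9 (r = 0.975). These are the closest of many probes, chosen for their likeness, and rats that share a slide are among the points. Myl9 ranged from 6.29 to 7.70 and Thbs2 from 3.08 to 4.64, while Ggcx ranged from 3.52 to 4.07 and Klhl7 from 2.27 to 2.73.

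Around the ligands and receptors, 52 further genes of the pathway had 69 probes, of which 58 were expressed and tested. Between the sexes 0 of 58 passed 1% by limma, beside 0.0434% of all probes, and 13 of 58 had an unadjusted p under 0.05, beside 17.1%. Between rats 0 of 58 passed 1%, beside 2.82%. At 5% between rats 6 of 58 passed, beside the 14.6% of all probes, and the median F was 1.99. Between nostrils 0 passed.

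By step of the pathway, the PI3K, Akt and mTOR list had 22 of 22 probes expressed and the receptor adaptors 13 of 15. The growth hormone list had 5 of 7, the proteases of binding proteins and their inhibitors 5 of 6, and the Ras and MAP kinase list 8 of 8. The relatives of insulin and of the binding proteins had 5 of 8. The Igf2 messenger binding proteins had 0 of 3. The smallest adjusted p between the sexes belonged to Pik3cb A_43_P12820, a catalytic subunit of PI3K, with a difference of 0.31 (SE 0.07, limma adjusted p = 0.106). Next was Rheb A_44_P252091, the GTPase that switches on mTOR, with a difference of 0.36 (SE 0.10, limma adjusted p = 0.133). The same Rheb probe had the smallest value between rats, with F = 10.4 and a limma adjusted p of 0.0177, while the other Rheb probe, A_44_P252090, had F = 2.62 and 0.199. Next was Pappa A_43_P22638, the PAPP-A protease, with F = 9.30 and a limma adjusted p of 0.0223. Pappa was lowest in female 8, at 5.25, and highest in male 1, at 5.94, an order unlike that of the binding proteins.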

How the data were processed

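The authors labeled each RNA with Cy3, hybridized 1 sample per Agilent array and extracted spot intensity with Feature Extraction 9.5.1.1. The deposited processed intensity is background-subtracted and spatially detrended, with no scaling between arrays and no replacement of dim values. The deposited ratio table, used as an alternative, holds signals divided by the array median and then by the probe median (99.98% of values within 2%, 20352 bright probes).

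Outlier spots were left out (61 to 175 per array), spots of 1 probe averaged, and log2 taken after division by the array median with a floor of 0.1. Detection was the well-above-background call, by majority of spots. Probes detected on at least 7 arrays were tested. Limma 3.58.1 (lmFit, eBayes with trend, R 4.3.3) compared the sexes on means of each rat, the nostrils with rat as block, and rats of 1 sex by an F-statistic with the nostrils as error, each with Benjamini-Hochberg adjustment over all probes at 1%, the level of the study. The nostrils pair by animal, and their deviations correlated at 0.245 to 0.493 in the 7 rats. The fits were tested on simulated data. All member probes are named. Pathway probes past 1%, otherwise the 2 with the smallest adjusted p per fit, are named. The number of arrays limits the precision. Gene lists and members were chosen with earlier results of these data known. Of the member probes with a RefSeq accession, 13 of 13 matched RefSeq's gene of the same symbol. Alternatives were 75th percentile and quantile scaling, normexp with an offset of 50, the ratio table, a floor of 0.5, other filters and thresholds, single arrays, slide as a block, the methods' t-test and leaving out each rat. One gene among those most like Igfbp4 is not reported here.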

Additional observations from a re-analysis of the deposited data

Results flagged for a closer look

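One value stood apart from the other rats of its sex. Igfbp4 A_43_P16767 was 5.556 in male 1 and between 6.397 and 6.492 in the other 3 males, and the gap took up 0.899 of the range, above Dixon's 95% critical value for 4 samples. Male 1 had nostril A alone. With 26 groups of 4 rats looked at, some are flagged by chance (about 5% of groups), and 1 was found.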

How the results depend on the processing

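The count of member probes called between the sexes and that between nostrils were 0 at 1% under every alternative run as a test, also for nostrils with no replicate block (0), and 0 at 5% in the fits as reported. With the 15 arrays taken as independent, 2 member probes passed 5% between the sexes by limma, Igf1r (adjusted p = 0.0166) and Igfbp5 A_44_P285534 (0.0437), beside 12.6% of all probes. The sex differences with slide as a block rest on 1 female array and are not counted as a test. The count of expressed member probes was 13, or 14 with the positive and significant call. The share of all probes under that call was not counted. The nostril difference by sex stayed at 0 under the alternatives chosen after seeing the data. The count between rats of 1 sex, 2 as reported, was 0 with normexp and with slide as a block, 1 with the ratio table and with no filter, 4 at 5%, and 1 to 2 with each rat left out. It was 1 without female 8. The cause of these losses was not tested. Over all probes, the count of 777 between rats became 1315 and 1481 with 75th percentile and quantile scaling, 73 with normexp, 365 with the ratio table, 474 with no filter, 0 with slide as a block and 176 to 894 with each rat left out. The count of 12 between the sexes became 6 with the ratio table, 3 with the filter at 11 arrays, 5 with the methods' t-test, 20 at 5% and 1031 with the 15 arrays as independent. Of 221 sex differences recomputed for member probes, 209 kept their direction and 12 did not. The difference of Igfbp4 A_44_P515317 was -0.82 with slide as a block and -0.68 within slide 1, and that of Igf2 -0.21 and -0.0526. Both settings rest on the same comparison on slide 1, of 1 female array with 2 males. With each rat left out, Igfbp4 A_44_P515317 ran from -0.0653 to 0.22, Igf1 A_44_P126021 from -0.27 to 0.0304, Igfbp3 A_42_P627998 from -0.20 to 0.00847, Igfbp3 A_44_P180127 from -0.22 to 0.00985 and Igfbp4 A_43_P16767 from -0.39 to 0.00921. Without changing sign, Igfbp5 A_44_P264240 ran from -0.50 (without female 7) to -0.16 (without female 4) and Igf2 from 0.18 (without male 1) to 0.51 (without male 2). Signal over background limits what can be said of the Igf1 probes of the second upstream block.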

Other observations

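Some probes of the same genes carry other names on the array and were not among the 15. The probe A_44_P375102 (chr14:33067515-33067574, build rn3) is described by a gene number that RefSeq's gene table gives to Igfbp7, and it was well above background on all 15 arrays. Its levels were 5.50, 6.05, 5.71 and 5.64 in males 1, 2, 5 and 6 and 5.90, 5.49, 5.97 and 5.81 in females 3, 4, 7 and 8. The sexes overlapped, with a difference of 0.07 (SE 0.13, limma adjusted p = 0.835), and rats of 1 sex differed with F = 1.84 (limma adjusted p = 0.315). The probe A_44_P1044658 (chr7:24628010-24628069), which the array describes as the last exon of Igf1, was also well above background on all 15 arrays. It read 1.12 in male 1, 1.91 in male 2, and 1.06 in both female 3 and female 4, and the highest rat, male 2, was also that of both expressed Igf1 probes among the 15. Its F between rats was 5.50 (limma adjusted p = 0.0596). These probes were picked after the array's descriptions had been read.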
